A study of Mus musculus with 16 samples.

Results

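The 36 genes described here encode targets of the transcription factor NRF2 and the enzymes that make, recycle or use glutathione. They come from a fixed list, and a gene was read from a transcript cluster (the set of probes that stands for one transcript on the array) that the platform annotation assigns to that gene and no other. Of several such clusters, that with the highest mean was taken. Of the 36 genes, 34 had a row of this kind among the 18820 genes of the series. Gsta2 lay in 4 clusters and Gstm5 in 1 cluster, each shared with other genes, so neither has a value of its own. Over the low-value filter (an intensity above 20, log2 4.32, on at least 5 arrays) 32 of the 34 were tested among 14275 genes. The 2 left out were Mgst2, a membrane-bound glutathione transferase that passed the filter on 0 arrays (log2 3.44 to 3.78), and Slc7a11, a cystine importer that passed it on 1 array (log2 3.28 to 4.47).

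NRF2 is held at a low level by KEAP1, which marks it for degradation. When electrophiles or oxidants modify KEAP1, NRF2 accumulates, pairs with a small MAF protein in the nucleus and binds the antioxidant response element near its target genes. The liver is rich in glutathione, which glutathione transferases (GSTs) join to reactive compounds, and the conjugates leave hepatocytes through export pumps. Many of these genes also respond to nuclear receptors, and several GSTs are among the more abundant liver transcripts.

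The samples are livers of 16 male C57BL/6J mice aged 12 months, 1 Affymetrix Mouse Gene 1.1 ST array per mouse, on 1 of 4 diets since the age of 9 weeks. The intermittent diet (INT) alternated weekly between ad libitum medium-fat feeding and 40% calorie restriction, and these mice were killed in a medium-fat week. The others were 30% calorie restriction (CR), ad libitum feeding of a medium-fat diet in which fat gave 25% of the energy (MF), and ad libitum feeding of the AIN-93W control diet (C). After a 4 h fast each mouse received by gavage either 160 mg/kg of the PPARα agonist WY14,643 (Wy) or its vehicle alone, 0.5% carboxymethyl cellulose (mock), and was killed after 6 h of further fasting. The study gave CR mice their portion each afternoon, so the time since their last meal may differ from that of mice fed ad libitum. Each diet had 4 arrays, 2 with Wy and 2 mock, and in each of these 1 mouse of high and 1 of low body weight class within its own diet. The labels give the class but no weights, so a high CR mouse need not have been heavy beside a high MF mouse. Wy and mock mice of one diet and class form a matched pair, which gives 8 pairs.

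The median of the tested genes was between log2 7.07 and 7.21 on every array, and correlations between arrays over all transcript clusters between 0.982 and 0.994. The 2 arrays of high INT mice carry another array code than the remaining 14, and no source used here says what the code stands for. Of 7 hepatocyte markers 6 had a row, all of them over the filter, and their summed linear level lay between 48250 and 52910 on INT arrays, 52710 and 59540 on CR arrays and 45670 and 53880 on C arrays. Of the 32 tested members 14 had their highest value of all 16 arrays in the high CR Wy liver, and results that rest on that array are given with and without it. In whole liver, fewer cells of a type and less RNA per cell cannot be told apart.

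The antioxidant response element has the core TGACNNNGC, which was searched on both strands in 300-base promoter windows of RefSeq (build GRCm38.p6, 250 bases before to 50 bases after a start site). Of the 36 genes 30 had at least 1 window, and Gclc, Gsta4, Gstt2, Gsr, Abcc3 and Hmox1 had none. A match lay in windows of 10 of the 30 genes, or in 11 of their 40 windows (27.5%), against 12.4% of all 32851 windows. The core is short, so a match is a description of the letters and not a bound site. The matches of members that differed between groups, and that of Txnrd1, a classical NRF2 target, are shown 5′ to 3′ in the orientation of the core, which is in capitals, with 10 bases on each side.
Gsta3 (chr1:21240454-21240482, plus strand): aactcaggcaTGACATTGCatttttcttc
Srxn1 (chr2:152105542-152105570, minus strand): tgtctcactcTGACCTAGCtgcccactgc
Gclm (chr3:122245413-122245441, minus strand): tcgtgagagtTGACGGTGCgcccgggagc
Ugdh (chr5:65435956-65435984, minus strand): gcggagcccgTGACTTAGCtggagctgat
Ugdh (chr5:65435918-65435946, plus strand): ccgaactgtaTGACCACGCcccttgagga
Mgst1 (chr6:138140461-138140489, minus strand): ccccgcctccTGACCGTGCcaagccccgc
Txnrd1 (chr10:82859104-82859132, minus strand): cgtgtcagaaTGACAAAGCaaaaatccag
Abcc4 (chr14:118706226-118706254, plus strand): cggcccgcccTGACCCCGCctctcggggc
Abcc4 (chr14:118676936-118676964, minus strand): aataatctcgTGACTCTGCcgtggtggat
Ugdh, the enzyme that makes UDP-glucuronic acid for glucuronide conjugation, had 2 matches in 1 window. The 250 bases before its start site (chr5:65435843-65436092, minus strand) are shown because Ugdh differed between diets and between body weight classes. Capitals mark both matches, and the second reads on the opposite strand.
Ugdh promoter: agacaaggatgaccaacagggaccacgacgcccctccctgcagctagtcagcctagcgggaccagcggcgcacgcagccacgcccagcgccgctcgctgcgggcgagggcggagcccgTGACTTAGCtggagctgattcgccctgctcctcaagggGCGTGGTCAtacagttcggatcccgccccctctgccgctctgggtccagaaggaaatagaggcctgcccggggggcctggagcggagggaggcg
The 2 matches began at positions -132 and -94 from the start site. Nqo1, Mgst3, Gstm3 and Gstm4, whose levels are described with those of Ugdh, had no match in their windows. Sequence more than 250 bases before a start site was not searched, so the element may lie outside the windows.

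Members differed widely in how much they varied. Over the 16 arrays Abcc4, an exporter of conjugates and nucleotides at the blood side of the hepatocyte, had a range of 2.74 log2, Nqo1, the quinone reductase, 2.06 log2, and Cbr3, a carbonyl reductase, 1.90 log2. Each of them had its highest value in the high CR Wy liver. Abcc4 was at 8.64 there and next at 7.39 in the low CR Wy liver. Nqo1 was at 7.80 and next at 7.58 in the low CR mock liver. Cbr3 was at 6.38, against a median of 4.89 over all arrays. Without the high CR Wy array Abcc4 and Cbr3 had narrower ranges than Nqo1 and Gsta4. At the other end were Txn1, thioredoxin, with a range of 0.21 log2, and Prdx1, a thioredoxin-dependent peroxidase, with 0.29 log2. Log2 levels of different genes come from different probes and are not compared with each other.

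**Figure D1:**
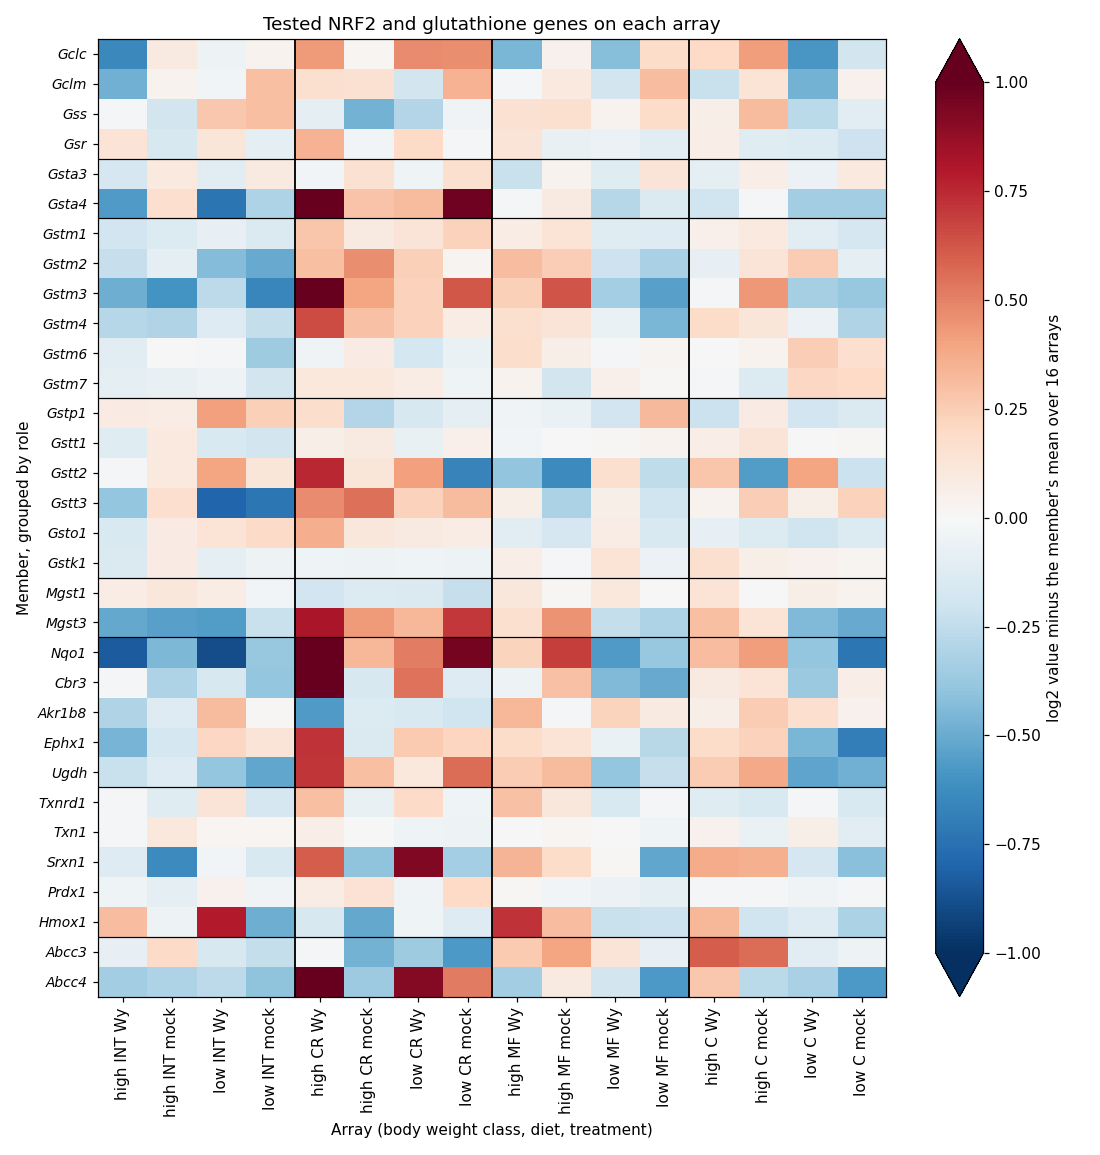
Tested members (rows, grouped by role with lines between the groups) on each of the 16 arrays (columns, by diet, body weight class and treatment). Colour is the log2 value minus the member's mean over all arrays, so red is above and blue below that mean. Nqo1, Mgst3, Gstm3, Ugdh and Gsta4 are red on CR arrays and mostly blue on INT arrays, and the high CR Wy array holds the highest value of 14 members.

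The first question was how the list differed between diets. Livers of INT mice had lower levels of Nqo1, of several GSTs and of Ugdh than livers of CR mice, by up to 2.61-fold on the clusters used. Compared with CR 10 of 32 members were lower in INT, against 4.28% of all tested genes, and 1 was higher, against 5.57% (limma, adjusted p under 0.05). In CR compared with C 6 members were higher, against 4.54% of all tested genes, and 2 were lower, against 5.98%. In CR compared with MF 4 were higher, against 5.79%, and 3 were lower, against 6.87%. The CR arrays enter all 3 of these comparisons, so the calls in one are not independent of those in another. The median log2 difference of the 32 members was -0.15 for INT minus CR, 0.20 for CR minus C and 0.17 for CR minus MF, while that of all tested genes was 0.01, -0.01 and -0.01.

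Markers of cell types also differed between these diets. Alas2, the only one of 3 erythroid markers with a row, had a linear level of 726.9 to 1028 on INT arrays, against 293.4 to 338.1 on CR arrays (log2 difference 1.45 ± 0.14, adjusted p 5.17e-05), and its level on C arrays was 691.7 to 939.6 (log2 difference for CR minus C -1.34 ± 0.14, adjusted p 0.000163). The summed level of 4 B and T cell markers was 161.6 to 263.4 on INT arrays and 129.2 to 180.5 on CR arrays, and 1 of them, Cd79a, was called higher in INT. Of 7 macrophage markers 1, Cd9, was lower in INT. Of the hepatocyte markers Tat and Cps1 were lower in INT, and of 4 periportal markers 2 were lower and 1 was higher. In CR minus C 2 of 5 stellate cell markers (Col1a1 and Pdgfrb), 1 of 4 B and T cell markers (Cd79b) and 2 of 8 pericentral markers were lower, while Tat and 2 of 4 periportal markers were higher and 1 periportal marker was lower. In CR minus MF Tat, Cps1, Pck1 and Kdr were higher and Alas2, Col1a1, Pdgfrb, Cd79a, Lyve1, Rhbg, Slc1a2 and Cyp2f2 lower. The part of these markers in the differences of the members was not tested.

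Among the enzymes of glutathione synthesis and recycling 1 of 4 tested members was called between diets. Gsr, the reductase that regenerates glutathione from its oxidised form, had log2 levels of 10.21, 9.84, 10.06 and 9.85 on the CR arrays (in the order high Wy, high mock, low Wy and low mock, which is kept for all diets), against 9.93, 9.74, 9.73 and 9.65 on the C arrays. It was 1.17-fold higher in CR (log2 difference 0.22 ± 0.06, SE, adjusted p 0.0381), with the 2 CR mock arrays below the highest C array. Gclc and Gclm, the catalytic and the modifier subunit of the enzyme for the first step of glutathione synthesis, had differences of 0.38 ± 0.21 (adjusted p 0.272) and 0.25 ± 0.11 (adjusted p 0.194) for CR minus C and did not pass the test. Gss, which completes the synthesis, differed by -0.36 ± 0.14 for CR minus MF (adjusted p 0.115).

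Gsta4, an alpha class GST with a preference for the lipid peroxidation product 4-hydroxynonenal, separated CR from all 3 other diets. Its log2 levels were 9.37, 10.10, 9.20 and 9.62 on INT arrays and 11.08, 10.22, 10.25 and 10.91 on CR arrays. The MF arrays had 9.92, 10.02, 9.65 and 9.79 and the C arrays 9.74, 9.91, 9.59 and 9.59. Every CR value lay above every value of INT, MF and C, although the lowest CR value, in the high mock liver, exceeded the highest INT value by little. The log2 difference was -1.04 ± 0.19 for INT minus CR (adjusted p 0.00382), 0.91 ± 0.19 for CR minus C (adjusted p 0.00756) and 0.77 ± 0.19 for CR minus MF (adjusted p 0.0161). Gsta3, a second alpha class GST, had values between 12.32 and 12.52 on CR arrays and between 12.27 and 12.46 on C arrays and was not called between diets.

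The mu class GSTs, which conjugate epoxides and other electrophiles, had 4 of 6 tested members lower in INT livers than in CR livers. Of all tested genes 4.28% were lower. Gstm3 had log2 levels of 10.98, 10.87, 11.21 and 10.81 on INT arrays, against 12.53, 11.87, 11.70 and 12.09 on CR arrays, and was 2.11-fold lower in INT (log2 difference -1.08 ± 0.20, adjusted p 0.0051). Gstm4 had 10.44, 10.42, 10.60 and 10.49 on INT arrays, against 11.38, 11.02, 10.96 and 10.80 on CR arrays (log2 difference -0.55 ± 0.10, adjusted p 0.00505). For both genes the INT arrays lay close together and below every CR array. Gstm2 had 9.38, 9.52, 9.18 and 9.10 on INT arrays, against 9.91, 10.08, 9.85 and 9.64 on CR arrays (log2 difference -0.57 ± 0.12, adjusted p 0.00801). Gstm1 had 12.35, 12.40, 12.46 and 12.39 on INT arrays, against 12.82, 12.63, 12.66 and 12.77 on CR arrays (log2 difference -0.32 ± 0.07, adjusted p 0.0149). These groups did not overlap either, and the changes of Gstm1 were the smallest of the 4. Gstm6 and Gstm7 had INT minus CR differences of -0.07 ± 0.09 and -0.16 ± 0.08 and did not pass the test. Compared with MF 1 mu class member was higher in CR, against 5.79% of all tested genes. This was Gstm4 with 11.38, 11.02, 10.96 and 10.80 on CR arrays and 10.89, 10.85, 10.66 and 10.27 on MF arrays (log2 difference 0.37 ± 0.10, adjusted p 0.0328). The mu class genes are close relatives, and RNA of one may hybridise to probes of another, so the single members are uncertain. Gstm3 had a second cluster of its own, which gave -2.15 ± 0.36 for INT minus CR (adjusted p 0.00252). For CR minus C that cluster gave 1.32 ± 0.36 (adjusted p 0.0319) and the cluster used 0.65 ± 0.20 (adjusted p 0.0564).

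Among the theta, omega, pi and kappa class GSTs 2 of 6 members were called. Gstt3, a theta class enzyme, had log2 levels of 9.04, 9.60, 8.63 and 8.71 on INT arrays, against 9.90, 9.98, 9.66 and 9.75 on CR arrays. It was 1.77-fold lower in INT (log2 difference -0.83 ± 0.15, adjusted p 0.00495), and both low INT arrays had lower values than both high INT arrays. Both high INT arrays carry the other array code, so class and code cannot be told apart there. Gsto1, an omega class enzyme with thioltransferase activity, had 10.23, 9.98, 9.96 and 9.94 on CR arrays, against 9.78, 9.73, 9.66 and 9.73 on C arrays, with no overlap (log2 difference 0.30 ± 0.09, adjusted p 0.0474). Gstp1, Gstt1, Gstt2 and Gstk1 had CR minus C differences between -0.12 and 0.18 and were called in no diet comparison.

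The 2 tested membrane-bound GSTs went in opposite directions. Mgst3, which acts on lipid hydroperoxides and leukotrienes, had log2 levels of 7.12, 7.09, 7.08 and 7.41 on INT arrays, against 8.45, 8.06, 7.96 and 8.34 on CR arrays, and was 2.04-fold lower in INT (log2 difference -1.03 ± 0.17, adjusted p 0.00219). On MF arrays it had 7.80, 8.09, 7.40 and 7.32 and on C arrays 7.93, 7.77, 7.19 and 7.13. The MF and C arrays were split by body weight class. Those of high class (7.77 to 8.09) lay above the INT range, with the high MF mock liver alone inside the CR range (7.96 to 8.45), and those of low class (7.13 to 7.40) lay within the INT range. Mgst3 was higher in CR than in C (log2 difference 0.70 ± 0.17, adjusted p 0.0185) and in CR than in MF (0.55 ± 0.17, adjusted p 0.047). Mgst1, an enzyme of the endoplasmic reticulum and the outer mitochondrial membrane, had 12.78, 12.82, 12.79 and 12.68 on INT arrays, against 12.52, 12.58, 12.57 and 12.48 on CR arrays. Here the CR arrays were the low ones, since MF arrays had 12.83, 12.72, 12.82 and 12.72 and C arrays 12.85, 12.72, 12.77 and 12.74. No CR value overlapped with any other diet. The differences were small and close to each other in size, 0.23 ± 0.05 for INT minus CR (adjusted p 0.0131), -0.23 ± 0.05 for CR minus C (adjusted p 0.0128) and -0.24 ± 0.05 for CR minus MF (adjusted p 0.0109).

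Of the quinone and carbonyl reductases and hydrolases, Nqo1 had the largest difference between INT and CR of the 32 members on the clusters used, smaller than that of the second Gstm3 cluster. Its log2 levels were 5.79, 6.17, 5.74 and 6.24 on INT arrays, against 7.80, 6.96, 7.14 and 7.58 on CR arrays, which is 2.61-fold lower in INT (log2 difference -1.38 ± 0.25, adjusted p 0.00395). MF arrays had 6.84, 7.32, 6.05 and 6.24 and C arrays 6.93, 7.04, 6.24 and 5.90. As for Mgst3, the high body weight livers of MF and C were near the CR livers and the low body weight ones near the INT livers. For CR minus C the difference was 0.84 ± 0.25 (adjusted p 0.0466), just under the threshold, and for CR minus MF it was 0.75 ± 0.25 (adjusted p 0.0634). Ugdh followed the same order, with 10.56, 10.65, 10.40 and 10.26 on INT arrays and 11.50, 11.09, 10.89 and 11.34 on CR arrays. On MF arrays it had 11.04, 11.10, 10.39 and 10.55 and on C arrays 11.04, 11.16, 10.25 and 10.30. It was 1.66-fold lower in INT than in CR (-0.73 ± 0.14, adjusted p 0.00533) and 1.43-fold higher in CR than in C (0.51 ± 0.14, adjusted p 0.0319). Akr1b8, an aldo-keto reductase, was lower in CR than in MF. It had 5.94, 6.37, 6.35 and 6.31 on CR arrays, against 6.84, 6.48, 6.73 and 6.60 on MF arrays (-0.42 ± 0.12, adjusted p 0.042). Cbr3 and Ephx1, the microsomal epoxide hydrolase, had INT minus CR differences of -0.63 ± 0.24 and -0.34 ± 0.22 and were called in no diet comparison.

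**Figure D2:**
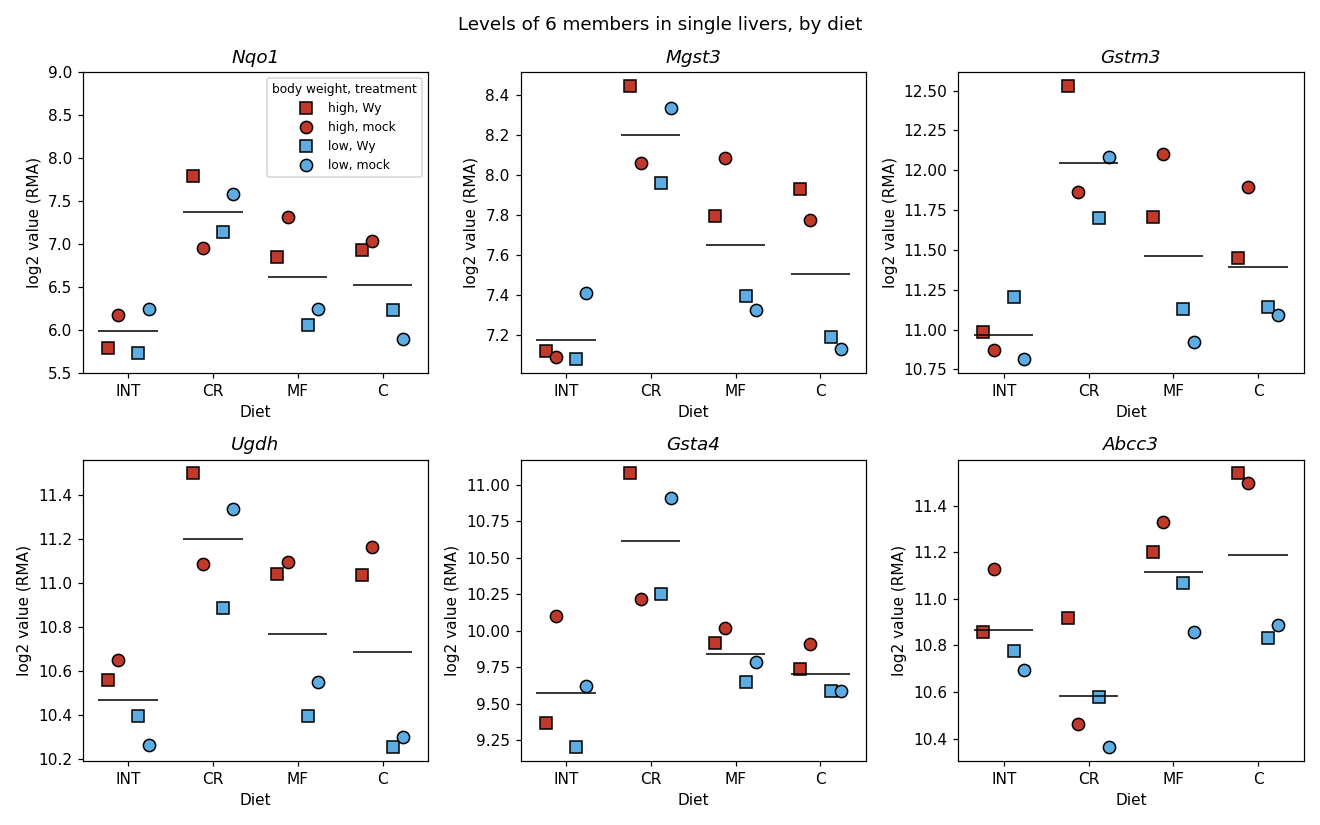
Log2 level (vertical axis) of 6 members in each liver by diet (horizontal axis, INT, CR, MF and C). Red marks high and blue low body weight class, squares Wy and circles mock, and the line is the mean of the 4 arrays of a diet. For Nqo1, Mgst3, Gstm3 and Ugdh the high body weight livers of MF and C lie above the low body weight ones, and the 4 INT livers lie below the 4 CR livers.

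No member of the thioredoxin and haem group was called between diets. Their INT minus CR differences ran from -0.43 for Srxn1, which repairs overoxidised peroxiredoxins, to 0.35 for Hmox1, the enzyme that degrades haem. Txnrd1, thioredoxin reductase, differed by 0.20 ± 0.09 for CR minus C (adjusted p 0.178), Srxn1 by 0.16 ± 0.23 (adjusted p 0.724) and Hmox1 by -0.13 ± 0.21 (adjusted p 0.752). Thus of the classical NRF2 targets Nqo1, Gclc, Gclm, Hmox1, Srxn1 and Txnrd1, 1 was called between diets.

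The 2 export pumps went opposite ways in CR. Abcc3, which sends glucuronides and other conjugates from hepatocytes to the blood, had log2 levels of 10.92, 10.46, 10.58 and 10.36 on CR arrays, against 11.20, 11.33, 11.07 and 10.86 on MF arrays and 11.54, 11.50, 10.83 and 10.89 on C arrays. It was 1.53-fold lower in CR than in C (-0.61 ± 0.11, adjusted p 0.00455) and 1.45-fold lower than in MF (-0.53 ± 0.11, adjusted p 0.00892), the high CR Wy array alone reaching into the range of both. Abcc4 had 8.64, 6.11, 7.39 and 6.99 on CR arrays, against 6.13, 6.56, 6.29 and 5.89 on MF arrays, a difference of 1.06 ± 0.33 (adjusted p 0.0476). On INT arrays it had 6.12, 6.16, 6.21 and 6.07 (-1.14 ± 0.33 for INT minus CR, adjusted p 0.0411). The 4 CR livers spanned 2.53 log2, from the high mock liver at 6.11 to the high Wy liver at 8.64, so the spread within CR exceeded the difference between the diets.

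The calls with CR depended on single arrays to different degrees. Without the high CR Wy array 1 member stayed higher in CR than in C (Gsta4, 0.73 ± 0.17, adjusted p 0.0261) and 0 in CR than in MF, while Abcc3 and Mgst1 stayed lower in both. Without it INT minus CR kept 9 of the 10 lower calls, losing Abcc4 (-0.74 ± 0.25, adjusted p 0.0919), and Gstp1, a pi class GST, was also called higher (0.41 ± 0.12, adjusted p 0.0497). Without the 2 high INT arrays, which carry the other array code, 2 members stayed lower in INT, Gsta4 (-1.11 ± 0.23, adjusted p 0.0326) and Gstt3 (-1.12 ± 0.13, adjusted p 0.00216), and Nqo1 had -1.07 ± 0.31 (adjusted p 0.104). This setting also left 1 weight class and 2 arrays in INT. All genes called in INT minus CR fell there to 380 of 14219, against 1406 of 14275 with all arrays. Without the high CR Wy array all genes called were 910 in CR minus C and 1056 in CR minus MF (of 14246). In INT minus CR they were 1029. With all arrays they were 1501 in CR minus C and 1807 in CR minus MF.

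Comparisons of the other diets gave 0 calls among the members. For MF minus C 0 members were called by limma, against 0% of all tested genes, and 0 members and 628 genes had an unadjusted p under 0.05. For INT minus C 0 were called, against 0.00701%, with 9 members and 1405 genes at an unadjusted p under 0.05. Among these 9 were Gstt3 (-0.57 ± 0.15), Gstm2 (-0.37 ± 0.12) and Nqo1 (-0.54 ± 0.25). For INT minus MF 0 were called, against 0%, with 6 members and 1629 genes at an unadjusted p under 0.05. These counts do not show that INT, MF and C livers were alike, and MF and C each join livers of high and low body weight.

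The second question was how members differed with body weight. In the ad libitum diets C and MF the livers of high body weight class had higher levels of Nqo1, Ugdh, Mgst3, Gstm3, Gstm4, Ephx1 and Abcc3 than those of low body weight class, by 1.29 to 1.90-fold on the clusters used. These 7 of 32 members were higher, against 4.67% of all tested genes, and 0 were lower, against 2.72%. The median log2 difference of the 32 members was 0.17, and that of all tested genes -0.00386. For each of the 7 the 4 high arrays lay above the 4 low arrays, as they did for 9 of the 32 members in all, against 10.6% of all tested genes.

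Ugdh showed the smallest adjusted p. Its log2 levels in MF Wy, MF mock, C Wy and C mock livers were 11.04, 11.10, 11.04 and 11.16 at high body weight, against 10.39, 10.55, 10.25 and 10.30 at low body weight (0.71 ± 0.11, adjusted p 0.00642). Nqo1, listed in the same order, had 6.84, 7.32, 6.93 and 7.04 at high and 6.05, 6.24, 6.24 and 5.90 at low body weight (0.93 ± 0.19, adjusted p 0.0192). Ephx1 had 11.91, 11.86, 11.91 and 11.96 at high and 11.66, 11.45, 11.26 and 11.04 at low body weight (0.56 ± 0.14, adjusted p 0.0391). The high Ephx1 values lay close together, while the low ones were spread, with the C livers below the MF livers.

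Of the GSTs, Mgst3 had 7.80, 8.09, 7.93 and 7.77 at high and 7.40, 7.32, 7.19 and 7.13 at low body weight (0.64 ± 0.12, adjusted p 0.0126). Gstm3 had 11.71, 12.10, 11.45 and 11.90 at high and 11.13, 10.92, 11.14 and 11.09 at low body weight (0.72 ± 0.17, adjusted p 0.0292). The second Gstm3 cluster gave a larger difference, 1.40 ± 0.28 (adjusted p 0.015). For Gstm4 the values were 10.89, 10.85, 10.91 and 10.84 at high and 10.66, 10.27, 10.67 and 10.43 at low body weight (0.37 ± 0.08, adjusted p 0.0192). For Gstm3 both high mock livers were above both high Wy livers. Abcc3 had 11.20, 11.33, 11.54 and 11.50 at high and 11.07, 10.86, 10.83 and 10.89 at low body weight (0.48 ± 0.10, adjusted p 0.021), with the high C livers above the high MF ones. Nqo1, Ugdh and Mgst3 were called higher in CR than in C as well as at high body weight, whereas Abcc3 was called lower in CR than in C and higher at high body weight.

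Of the members not called, Gstm1, Srxn1 and Hmox1 had differences of 0.22 ± 0.06 (adjusted p 0.0592), 0.58 ± 0.18 (adjusted p 0.08) and 0.51 ± 0.17 (adjusted p 0.0874). Gclc differed by 0.30 ± 0.16 (adjusted p 0.278), Gclm by 0.07 ± 0.10 (adjusted p 0.715) and Txnrd1 by 0.11 ± 0.08 (adjusted p 0.454).

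Markers of several other cell types moved with body weight too. Of 7 markers of monocyte-derived macrophages 5 were called higher and 0 lower at high body weight in C and MF, and their summed linear level was 1665 to 2662 at high and 1283 to 1547 at low body weight. The 5 endothelial markers summed to 4615 to 5265 at high and 4293 to 4567 at low body weight, with Lyve1 and Pecam1 called higher. The 5 stellate cell markers summed to 1786 to 1920 at high and 1529 to 1763 at low body weight, with Col1a1 called higher. Erythroid Alas2 had 590.9 to 749.9 at high and 855.1 to 1051 at low body weight and was called lower, as was 1 of 7 Kupffer cell markers, Timd4. The ranges of the macrophage, endothelial and stellate cell sums and of Alas2 did not overlap between the classes, and that of the Kupffer cell sum did (3469 to 5158 at high and 3325 to 3753 at low body weight). Of hepatocyte and zonal markers Rhbg was higher and Cps1 and Cyp1a2 were lower. None of the markers of these 5 cell types that had a row was under the filter on low values, and their part in the result was not tested. The summed level of the hepatocyte markers was 45670 to 51780 at high and 50130 to 53880 at low body weight.

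In the restricted diets CR and INT 0 members were called by body weight class, against 0% of all tested genes, with 5 members and 679 genes at an unadjusted p under 0.05. The study reported that body weights varied very little in CR and INT and widely in C and MF. The classes may thus differ less in weight here, and the counts do not show that body weight had no effect. Both high INT arrays carry the other array code, so within INT class and code cannot be told apart. Nqo1 had 5.79, 6.17, 7.80 and 6.96 in INT Wy, INT mock, CR Wy and CR mock livers of high body weight, against 5.74, 6.24, 7.14 and 7.58 in those of low body weight (0.01 ± 0.19). The high CR Wy liver was above and the high CR mock liver below its low counterpart. The difference between the 2 body weight effects gave 0 called members, against 0.757% of all tested genes with a higher and 0.0981% with a lower effect in C and MF. The smallest adjusted p was that of Mgst3 (0.65 ± 0.17, adjusted p 0.1), and 14 members and 2012 genes had an unadjusted p under 0.05. Without the high CR Wy array Ephx1, Nqo1, Mgst3, Ugdh and Gss passed this test, with Nqo1 at 1.19 ± 0.19 (adjusted p 0.0222). All genes called also rose there, to 252 of 14246, against 122 of 14275 with all arrays. That array was picked out by the members' own values, so these calls are only a description. Over all 4 diets 0 members were called by body weight class, against 0%, with 7 members and 2000 genes at an unadjusted p under 0.05. Ugdh had the smallest adjusted p there (0.47 ± 0.10, adjusted p 0.146).

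**Figure D3:**
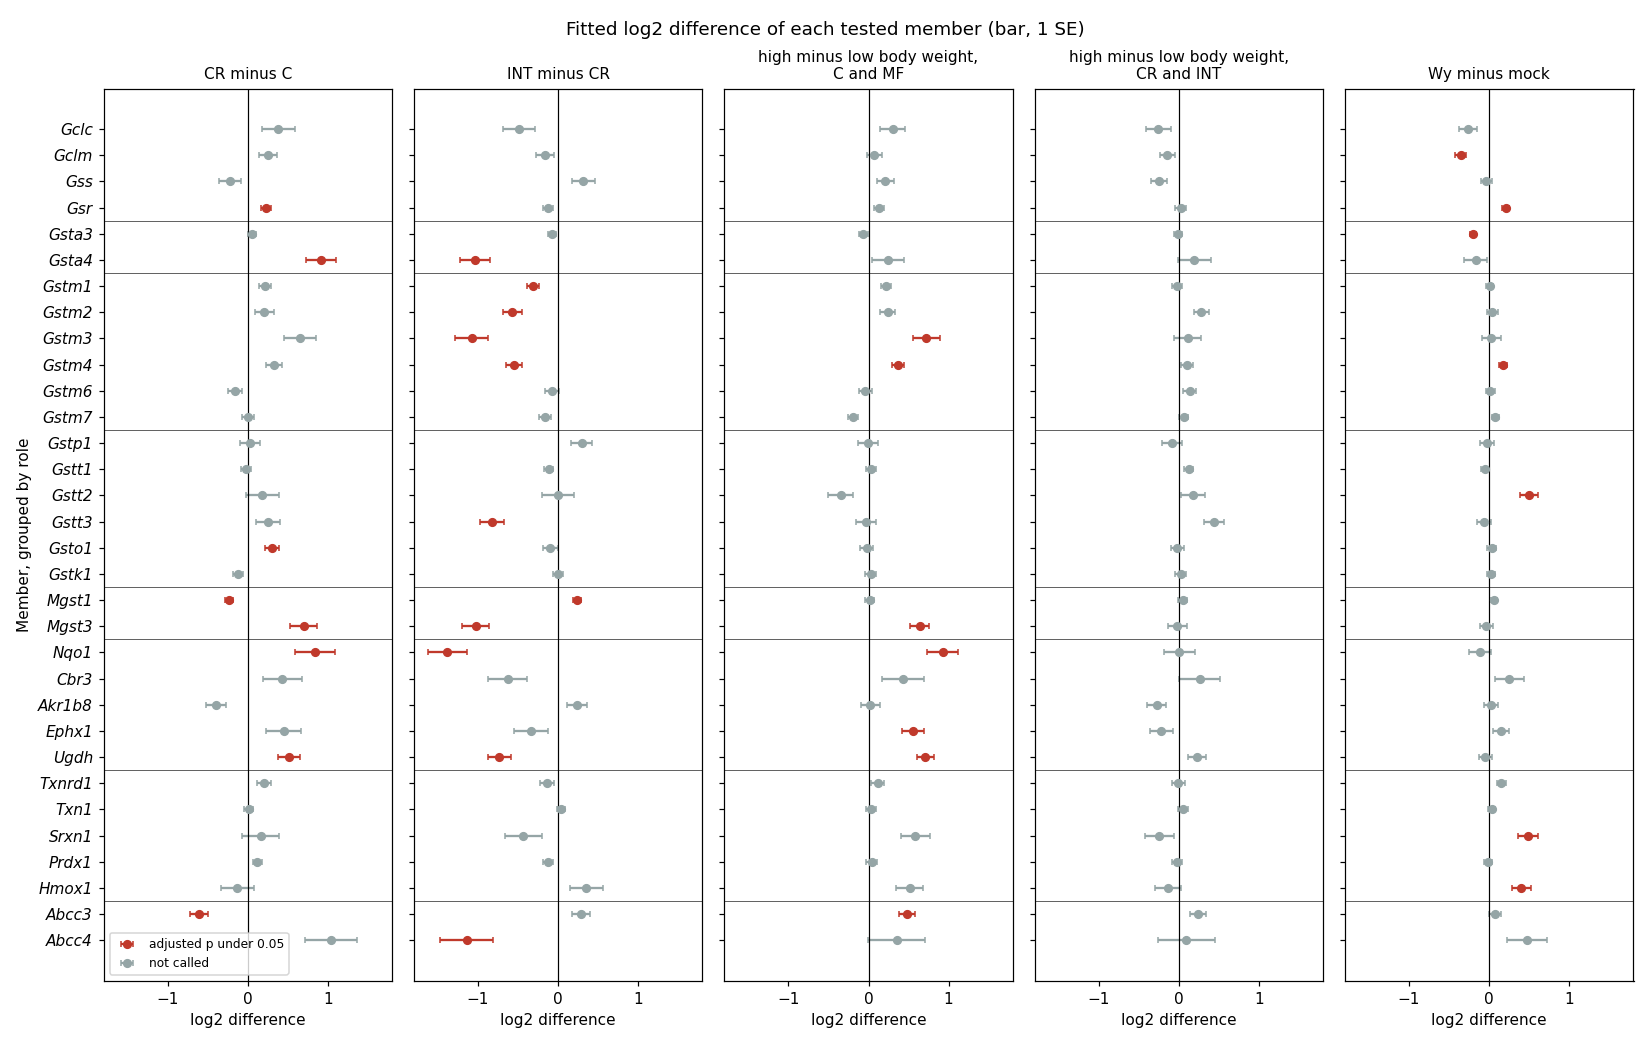
Fitted log2 difference (horizontal axis) of the 32 tested members (rows, grouped by role) in 5 comparisons, 1 per panel. Points are estimates, bars 1 SE to each side, and red points have an adjusted p under 0.05. Red points lie to the left of 0 for 10 members in INT minus CR and to the right of 0 for 7 members in the body weight panel of C and MF, and no point is red in the body weight panel of CR and INT.

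The third question was how members responded to the PPARα agonist within 6 h. Wy livers had higher levels of Gstt2, Srxn1, Hmox1, Gsr and Gstm4 and lower levels of Gclm and Gsta3 than mock livers, by 1.13 to 1.41-fold. These 5 higher members of 32 stand against 12.3% of all tested genes, and the 2 lower against 16% (limma, pair as a block). In all 21.9% of members and 28.3% of genes were called, so the members' share was below that of all genes.

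Markers of liver zones differed with Wy as well. The 4 periportal markers summed to 11350 to 13510 in Wy livers, against 14640 to 18740 in mock livers, and 3 of them were called lower. Of 8 pericentral markers 4 were lower, with sums of 19590 to 24180 in Wy livers, against 23050 to 26970 in mock livers, and of 6 hepatocyte markers 2 were lower. Plin1, an adipocyte marker also found on lipid droplets, was higher (0.16 ± 0.05, adjusted p 0.0207). The part of these markers in the members' response was not tested.

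Of glutathione synthesis and recycling, Gclm had log2 levels of 10.81, 11.11 and 11.45 in the 8 Wy livers, against 11.32, 11.43 and 11.64 in the 8 mock livers (lowest, median and highest). It was lower with Wy in 7 of 8 pairs (-0.36 ± 0.07, SE, adjusted p 0.00222), the high CR pair being the exception at 0.01. Gclc had 10.53, 10.93 and 11.64 in Wy livers, against 10.99, 11.24 and 11.63 in mock livers. Lower in 6 of 8 pairs, it did not pass the test (-0.27 ± 0.11, adjusted p 0.0969), and its pair differences ran from -0.73 in the high INT pair to 0.40 in the high CR pair. The high CR Wy array was picked out by the members' own values. Without it 3974 of 14246 tested genes were called, against 4038 of 14275 with all arrays. Among the 3974 were Gclc (-0.36 ± 0.09, adjusted p 0.0125) and Gsta4 (-0.32 ± 0.09, adjusted p 0.0279). With all arrays Gsta4 had -0.17 ± 0.14 (adjusted p 0.422). Gsr went the other way, with 9.73, 9.99 and 10.21 in Wy livers, against 9.65, 9.76 and 9.85 in mock livers. It was higher in 8 of 8 pairs (0.21 ± 0.05, adjusted p 0.00651). With Wy, then, the modifier subunit for synthesis was lower and the reductase for recycling higher in the same livers.

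Among the GSTs, Gsta3 had the smallest adjusted p of the list. Its log2 levels were 12.14, 12.26 and 12.33 in Wy livers, against 12.39, 12.46 and 12.52 in mock livers, and the groups did not overlap. All 8 pairs were lower with Wy, by -0.16 to -0.27 (-0.21 ± 0.04, adjusted p 0.00174). Gstt2, a theta class GST, had 8.87, 9.60 and 10.02 in Wy livers, against 8.60, 9.03 and 9.38 in mock livers. It was higher in 7 of 8 pairs (0.50 ± 0.11, adjusted p 0.00571), the high INT pair at -0.11 being the exception and the low CR pair the highest at 1.07. Gstm4 had 10.44, 10.78 and 11.38 in Wy livers, against 10.27, 10.64 and 11.02 in mock livers, and was higher in 8 of 8 pairs (0.17 ± 0.05, adjusted p 0.0357). This call was lost when any 1 of 5 of the 8 pairs was left out and without the pair as a block (adjusted p 0.103).

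Srxn1 had 8.41, 8.76 and 9.51 in Wy livers, against 7.94, 8.21 and 8.94 in mock livers, and was higher in 8 of 8 pairs (0.48 ± 0.13, adjusted p 0.0167). The 2 CR pairs had the highest differences, 1.01 and 1.27, against 0.02 to 0.53 in the other 6 pairs. Hmox1 had 8.35, 8.70 and 9.36 in Wy livers, against 8.06, 8.36 and 8.88 in mock livers, and was higher in 7 of 8 pairs (0.40 ± 0.12, adjusted p 0.0255), with the low INT pair at 1.29. This call was lost without the pair as a block (adjusted p 0.0566) and when the high C pair lost its Wy or its mock array (adjusted p 0.0599 each). Txnrd1 was higher in 7 of 8 pairs without passing the test (0.15 ± 0.06, adjusted p 0.0733). Nqo1 was higher in 2 of 8 pairs (-0.12 ± 0.14, adjusted p 0.585), and its high CR pair at 0.84 stood against -0.51 in the low INT pair.

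**Figure D4:**
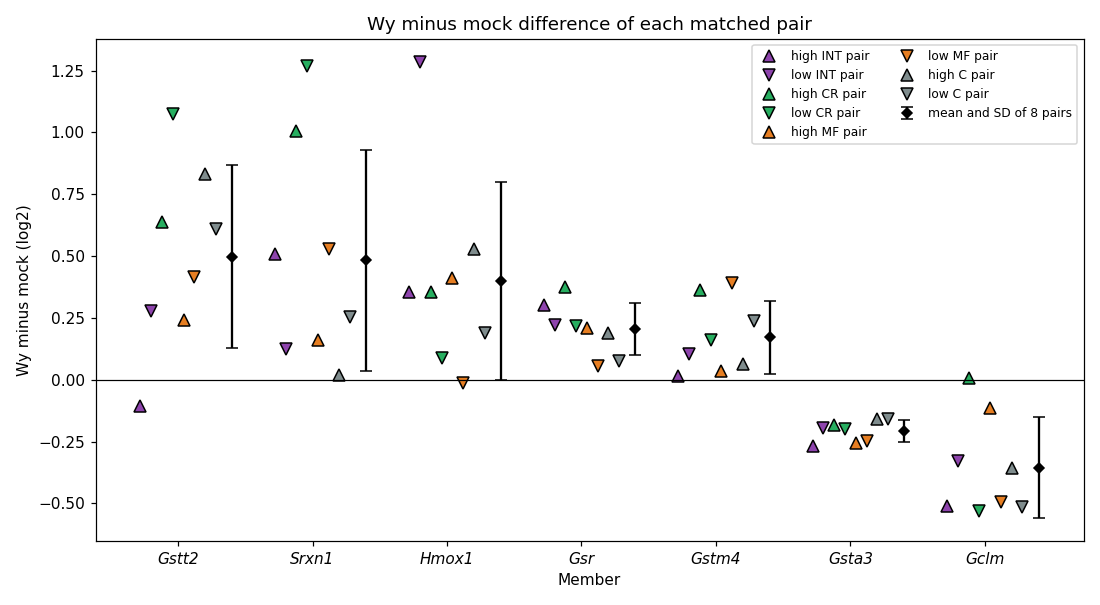
Wy minus mock difference (vertical axis, log2) of each matched pair for the 7 members called with Wy (horizontal axis). Colours mark the diet, upward triangles the high and downward triangles the low body weight pair, and the black diamond and bar the mean and SD of the 8 pairs. Gsta3 lies below 0 and Gsr, Srxn1 and Gstm4 above 0 in all 8 pairs, and the 2 CR pairs stand highest for Srxn1.

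Whether the response to Wy depended on diet or on body weight could not be shown for any member. For the dependence on diet 0 members were called by limma's F test, against 0% of all tested genes, with 5 members and 669 genes at an unadjusted p under 0.05. Srxn1 (p 0.00411, adjusted p 0.947) and Cbr3 (p 0.00535, adjusted p 0.967) had the smallest p. For Cbr3 the CR pairs were at 1.56 and 0.67 and the other 6 pairs between -0.44 and 0.30. For the dependence on body weight class 0 members were called, against 0%, with 1 member and 673 genes at an unadjusted p under 0.05. With 1 pair per diet and class, these tests have 4 and 6 residual degrees of freedom.

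Genes that regulate NRF2, 13 of which were tested, were called with Wy in 5 cases, 1 higher and 4 lower, against 12.3% higher and 16% lower among all tested genes. Nfe2l1, the NRF2 relative NRF1, was higher (0.60 ± 0.06, adjusted p 2.12e-05), while Mafg, a small MAF partner (-0.44 ± 0.06, adjusted p 0.000157), and Btrc, a ubiquitin ligase adaptor that recognises NRF2 (-0.49 ± 0.06, adjusted p 0.000197), were lower. In CR minus C and in INT minus CR 0 of the 13 were called by limma, with 3 and 1 at an unadjusted p under 0.05. Mafk, another small MAF protein, was higher at high body weight in C and MF (0.54 ± 0.11, adjusted p 0.0181) and lower in CR than in MF (-0.52 ± 0.15, adjusted p 0.0347).

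Of 22 tested further NRF2 and NADPH genes 5 were lower and 1 higher in INT than in CR, against 4.28% and 5.57% of all tested genes. The 3 with the smallest p were Pgd, which yields NADPH in the pentose phosphate pathway (-1.63 ± 0.14, adjusted p 2.53e-05), Me1, malic enzyme (-1.23 ± 0.13, adjusted p 7.14e-05), and Cbr1, a carbonyl reductase (-0.93 ± 0.13, adjusted p 0.000803). In CR minus C 4 were higher, Pgd (1.00 ± 0.14, adjusted p 0.000821) and Cbr1 (0.97 ± 0.13, adjusted p 0.000691) among them, and 2 were lower, among them the retinal dehydrogenase Aldh1a1 (-0.58 ± 0.08, adjusted p 0.000621), against 4.54% and 5.98% of all tested genes. In CR minus MF 4 were higher and 1 lower, against 5.79% and 6.87%. At high body weight in C and MF 3 were higher and 0 lower, against 4.67% and 2.72%, Pgd again among them (0.45 ± 0.12, adjusted p 0.04998). With Wy 4 were higher and 2 lower, against 12.3% and 16%, and Entpd5 (0.63 ± 0.08, adjusted p 0.000113), Me1 (0.50 ± 0.10, adjusted p 0.00231) and Taldo1 (0.21 ± 0.05, adjusted p 0.00686) had the smallest p.

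Of 21 tested further glutathione genes 2 were higher and 6 lower with Wy, against 12.3% and 16% of all tested genes. Chac2, which degrades glutathione (-0.79 ± 0.05, adjusted p 1.42e-06), and Cth, which makes cysteine from cystathionine (-0.67 ± 0.11, adjusted p 0.00122), were lower, and Oplah, which returns 5-oxoproline to glutamate (0.64 ± 0.06, adjusted p 2.12e-05), was higher. In CR minus C 0 of the 21 were called by limma, with 3 at an unadjusted p under 0.05, in CR minus MF 1 was higher and 2 lower, and in INT minus CR 1 was higher and 0 lower. At high body weight in C and MF 1 was higher, Gpx4, which reduces phospholipid hydroperoxides (0.56 ± 0.08, adjusted p 0.00387), and 3 were lower. Of 14 thioredoxin, peroxiredoxin and antioxidant genes 1 was higher and 1 lower with Wy. The same counts held for these 14 in INT minus CR and at high body weight, while in CR minus C 0 were higher and 1 was lower and in CR minus MF 2 were higher and 1 lower. Of 11 tested targets of the xenobiotic receptors CAR and PXR, which also regulate several GSTs, 2 were higher and 0 lower in CR than in C, against 4.54% and 5.98% of all tested genes, and 1 was higher and 4 lower in INT than in CR, against 5.57% and 4.28%. In CR minus MF 2 of these 11 targets were higher and 1 was lower. At high body weight in C and MF 2 were higher, Aldh1a7 and Cyp2b10, and 2 were lower, Ces2a among them. With Wy 2 of the 11 were higher and 3 lower. The counts of the other comparisons of these lists stand against the shares of all tested genes given with the members. Slco1a4, an organic anion transporter, had the smallest p of that list both in CR minus C (1.07 ± 0.20, adjusted p 0.00389) and in INT minus CR (-2.06 ± 0.20, adjusted p 5.06e-05).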

How the data were processed

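Liver RNA of 16 mice was measured on Affymetrix Mouse Gene 1.1 ST arrays. The deposited values are log2 intensities, which the authors made by robust multi-array averaging (RMA: background correction, equalisation of the arrays' distributions and a summary per transcript cluster). No source used here gives the software version. Equalising distributions hides a shift common to most genes, and precision is limited by how few arrays there are. Of 35556 transcript clusters 21218 had exactly 1 gene in the platform annotation, 1881 had several and 12457 were not in it. The filter on low values has the thresholds of the study's methods. The study applied them to another set of arrays, all from mock mice, and to probe sets defined in another way.

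Differences were fitted with limma 3.58.1 (R 4.3.3). The Benjamini-Hochberg adjustment ran over the 14275 genes tested, separately for each comparison, and calls had an adjusted p under 0.05. Each mouse gave 1 array, so replicates are separate animals. For Wy minus mock the pair was a block (7 residual degrees of freedom), since the labels state that mock and Wy mice were matched by body weight within a diet. Deviations of paired arrays from their group means correlated across genes at 0.0839 in INT, -0.169 in CR, 0.564 in MF and 0.531 in C. The diet contrasts were adjusted for treatment and body weight class (10). The body weight contrast over all diets was adjusted for diet and treatment (10), and those within 2 diets came from a fit with each diet's own body weight effect, adjusted for treatment (7). Whether the Wy effect depended on diet (4) or class (6) was asked by interaction terms beside the pair block. Errors beside differences are standard errors of the fit. Fits were tested on simulated data with known changes.

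The members, the 5 other gene lists and the marker lists were chosen with earlier results of these data known. Members called between diets or body weight classes are given with each array's value, and those called with Wy by the lowest, median and highest value. Classical NRF2 targets are named whether called or not, and other members are given by difference or range. From each other list at most 3 genes with the smallest p in a comparison are named. Alternatives were no filter, centred arrays, the mean of a gene's clusters, trended and robust moderation, the first array code alone or as a term, 1 treatment alone, no replicate block and each array left out. The other cluster of Gstm3, Prdx1 and Txn1 and crossed pairs in CR were added after seeing the data. Protein sequences were not used here.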

Additional observations from a re-analysis of the deposited data

Results flagged for a closer look

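Among 160 groups of arrays or pair differences, 10 held 1 value far from the rest by Dixon's criterion, which by chance marks about 1 group in 20. Of the 10, 6 belonged to CR livers of high body weight. Gclc was at log2 11.2 in the high CR mock liver, against 11.6 in the other 3 CR livers. Gsto1 was at 10.2 in the high CR Wy liver, against 9.94 to 9.98 in the other 3, and Akr1b8 at 5.94 there, against 6.31 to 6.37. The Wy minus mock difference of the high CR pair was 0.86 for Gsta4 (-0.73 to 0.00 in the other 7 pairs), 0.86 for Ephx1 (-0.29 to 0.23) and 2.53 for Abcc4 (-0.43 to 0.54). In the low INT pair Hmox1 differed by 1.29, against -0.01 to 0.53 in the others. Mgst3 was at 7.41 in the low INT mock liver, against 7.08 to 7.12 in the other 3 INT livers. In the low C Wy liver Cbr3 was at 4.61, against 5.05 to 5.12 in the other 3 C livers, and Prdx1 at 12.1 (12.098), against 12.114 to 12.116.

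Srxn1 was higher at high than at low body weight in all 4 comparisons within C and MF and lower in all 4 within CR and INT. Within INT body weight class cannot be told apart from the array code. The effects differed by 0.829 ± 0.261 (SE), and the test of that difference did not pass (limma, adjusted p 0.168).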

How the results depend on the processing

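Of 40 named calls (a member in a comparison), none reversed its direction under any alternative that was run. The counts of called members changed by more than 1.5 times in these cases. Without the filter on low values 2 members were higher in CR minus MF (4 with it), and with trended and robust moderation 1 was lower at high body weight in C and MF. All genes called there were 1658 of 18820 and 1138 of 14275, against 1807 and 1055 of 14275 in the main fit. With the first array code alone, and likewise with the code as a term, 0 were higher and 2 lower in INT minus CR (1 and 10 over all arrays). All genes called there were 380 of 14219 and 336 of 14275, against 1406 of 14275 in the main fit. The setting without the replicate block left body weight class out of the diet fits and put diet and class in place of the pair for Wy. Under it 3 members were higher with Wy and 3 in CR minus C. In CR minus MF 1 was higher and 1 lower. All genes called without the block were 3888 with Wy, 1270 in CR minus C and 1499 in CR minus MF. With it they were 4038, 1501 and 1807. Crossed pairs in CR changed neither Wy count of members beyond that factor. With mock arrays only, 0 members were called in either direction in CR minus C, CR minus MF and INT minus CR and 0 were higher at high body weight in C and MF. With Wy arrays only, 1 was higher and 0 lower in CR minus C and in CR minus MF, 0 higher and 5 lower in INT minus CR, and 0 higher at high body weight in C and MF. Of 13911 genes tested with mock arrays only, 9, 10 and 65 were called in CR minus C, CR minus MF and INT minus CR. By body weight class in C and MF 46 were called. With Wy arrays only, these counts were 124, 185, 140 and 2 of 13975 genes. The fits within 1 treatment have 8 arrays, and the cause of the other changes was not tested.

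Leaving out each array in turn gave 1 to 8 members higher in CR minus C, 0 to 8 higher in CR minus MF, 1 to 2 higher in INT minus CR, 1 to 8 higher at high body weight in C and MF, 2 to 4 lower with Wy, 0 to 1 higher at high body weight over all diets and 0 to 5 with a higher body weight effect in C and MF than in CR and INT. In CR minus C the count fell to 1 without the high CR Wy, low CR mock, low C Wy or low C mock array and to 3 without either high C array. In CR minus MF it was 0 without high CR Wy, 1 without high MF Wy or low MF mock, 2 without high C mock, low C Wy, low CR Wy, low CR mock, low MF Wy or low INT Wy, and 8 without high CR mock. At high body weight in C and MF it was 1 without high MF mock, low MF mock or low C mock, 2 without high C mock, 3 without low C Wy and 4 without high C Wy. The 4 lower with Wy arose without the high CR pair. Over the left-out settings all genes called ran from 884 to 1601 in CR minus C (1501 with all arrays). They ran from 1056 to 1973 in CR minus MF (1807 with all arrays). By body weight class in C and MF they ran from 182 to 1145 (1055 with all arrays). Gclm, Gsr, Gsta3, Gstt2 and Srxn1 with Wy passed under all 24 alternatives run, while Nqo1 in CR minus C passed under 9 of 26 and Abcc4 in CR minus MF under 5 of 26. The 24 alternatives with Wy are not separate tests. Leaving out either array of a pair removes the same pair from the Wy difference. The settings that change clusters could not alter the values of these members, each of which has 1 cluster of its own. The body weight effect in CR and INT could not be fitted with the array code, since both high INT arrays carry the second code, and its difference from that in C and MF was not run within 1 treatment.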
